A study of Mus musculus with 6 samples.

Results

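Vegfa, Vegfb, Vegfc, Pgf, Angpt1, Angpt2, Fgf2 and Apln are genes for ligands that act on vessels. Fgfbp1, the gene for a carrier of FGF2, and Aplnr, the gene for the apelin receptor, complete the 10 members. The 10 were taken by name from the expression values of WT and TFEB KO muscle, keeping every probe set that the array annotation assigns to 1 of them alone. All 10 have a probe set of their own, 12 of the 22626 probe sets tested, and they are 10 of 12393 genes measured in this way. Vegfa and Aplnr have 2 probe sets each, and the brighter is used in counts of genes.

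RNA was taken from muscle at 1 month of age in 3 WT and in 3 TFEB KO mice of the C57BL/6 strain and read on an Affymetrix array for each mouse. The study describes the TFEB KO mouse as a cross of a floxed Tcfeb line (Tcfeb is the older name of Tfeb) with MLC1f-Cre, a transgene that acts in skeletal muscle fibers. Vessel, immune and nerve cells of the same tissue lie outside the fibers that this Cre targets. The sources used here do not say which muscle was taken or whether WT mice carried a floxed or Cre allele. Values are log2 RMA values (normalized array brightness, where 1 unit is a doubling), and a difference is always TFEB KO minus WT, tested with limma over all probe sets and adjusted by the Benjamini-Hochberg method.

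VEGF-A is the chief growth signal for blood vessels, and muscle fibers are a major source of it, raising its production in hypoxia and under the PGC-1 coactivators. VEGF-B and placental growth factor bind the receptor Flt1, and VEGF-C acts mainly on lymphatic vessels through Flt4. Angiopoietin 1 steadies vessels through the receptor Tek, and angiopoietin 2 can oppose it. FGF2 is stored on heparan sulfate in the matrix, from which the carrier Fgfbp1 releases it. Apelin and its receptor Aplnr act between endothelial cells and in vessel and muscle metabolism.

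The deleted gene was lower in TFEB KO muscle. Tfeb was 8.55 to 8.96 in WT and 7.04 to 7.23 in TFEB KO mice (adjusted p = 0.0079 from limma, 1 probe set, whose place relative to the deletion was not looked up). Of 10 genes of fast fibers, the main fiber type of most mouse muscles, 0 passed the test, and most were near the brightest value on the arrays, 14.93. Genes of slow fibers set WT 3 apart: measured from the WT mean, 8 slow fiber genes had a median of 0.30 in WT 1, 0.50 in WT 2 and -0.84 in WT 3, beside -0.90, -0.54 and -0.63 in KO 1 to KO 3. Between the groups all 8 lay below 0, with a median log2 fold change of -0.69. At an unadjusted p under 0.05 from limma 5 were lower, and 0 passed after adjustment. Xist, which marks female cells, was 5.26 to 5.78 over the 6 arrays and Y-linked Eif2s3y was 8.87 to 9.79, so the arrays did not split by sex.

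Promoter sequence was read for the lower members that have an entry in the RefSeq table (GRCm38.p6), since TFEB is a DNA-binding factor and the hypoxia factors that drive Vegfa bind DNA as well. Each window runs 5′ to 3′ from 250 bases before to 50 bases after an annotated start, and capitals mark the letters GCGTG or ACGTG (the core that hypoxia factors bind, on either strand) and TATAAA.
Fgfbp1, chr5:43981750-43982049 (- strand): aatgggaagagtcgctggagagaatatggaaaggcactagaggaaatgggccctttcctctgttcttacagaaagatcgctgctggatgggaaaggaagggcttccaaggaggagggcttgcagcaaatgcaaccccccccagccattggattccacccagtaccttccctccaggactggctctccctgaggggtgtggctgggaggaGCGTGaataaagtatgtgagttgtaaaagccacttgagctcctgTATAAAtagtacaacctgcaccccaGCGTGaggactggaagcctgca
Vegfa, chr17:46032328-46032627 (- strand): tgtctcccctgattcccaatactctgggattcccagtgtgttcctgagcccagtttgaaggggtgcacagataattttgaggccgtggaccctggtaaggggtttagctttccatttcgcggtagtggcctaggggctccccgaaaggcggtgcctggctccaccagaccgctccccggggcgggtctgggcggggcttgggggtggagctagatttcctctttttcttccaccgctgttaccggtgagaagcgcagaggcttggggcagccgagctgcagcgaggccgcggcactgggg
Vegfb, chr19:6987602-6987901 (- strand): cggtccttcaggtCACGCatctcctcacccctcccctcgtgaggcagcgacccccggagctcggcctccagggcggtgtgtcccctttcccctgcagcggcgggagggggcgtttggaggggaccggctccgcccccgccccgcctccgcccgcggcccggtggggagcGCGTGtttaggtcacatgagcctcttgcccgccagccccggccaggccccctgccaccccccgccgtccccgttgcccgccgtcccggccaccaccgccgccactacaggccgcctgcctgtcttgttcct
Apln, chrX:48034804-48035103 (- strand): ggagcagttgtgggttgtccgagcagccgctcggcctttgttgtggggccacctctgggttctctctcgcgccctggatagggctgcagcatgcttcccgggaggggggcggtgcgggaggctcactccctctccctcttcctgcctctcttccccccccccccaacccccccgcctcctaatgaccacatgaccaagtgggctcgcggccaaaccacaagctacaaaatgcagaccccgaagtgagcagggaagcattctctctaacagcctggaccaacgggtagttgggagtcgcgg
The letters CACGTG, the core of the CLEAR element that TFEB binds, were found in 0 of the 9 windows of 7 members, against 7.15% of all 32851 windows. The full CLEAR palindrome, which holds those letters at its center, was in 0 of the 9 and in 0.326% of all windows. GCGTG or ACGTG, the second of which lies within CACGTG, stood in 5 of the 9 windows and in 43.8% of all. Vegfa has a second window, chr17:46025114-46025413, not shown, with GCGTG and ACGTG once each. The Fgfbp1 window held GCGTG at 2 places and TATAAA once, a sequence found in 13.6% of all windows, and it was poor in CpG, with 4 against 15 to 31 in the windows shown of Vegfa, Vegfb and Apln and a median of 7 over all windows. These are matches of letters in short windows and do not show where a factor binds. At a share of 7.15% of all windows, 0 of 9 with CACGTG does not stand out. The paper searched a longer promoter stretch for CLEAR sites, so its counts and these are not alike. Aplnr, Angpt1 and Angpt2 had no window.

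Of the 10 genes, Fgfbp1 and Aplnr fell in TFEB KO muscle and 0 rose at an adjusted p under 0.05, where 0.702% of all 12393 genes fell, 0.871% rose and 1.57% changed in either direction (1.6% of all probe sets). Fgfbp1 codes for a carrier and Aplnr for a receptor, so no ligand passed the test. Among the ligands, Vegfa, Vegfb and Apln were lower in every TFEB KO array than in every WT array but missed the threshold. Vegfc, Pgf, Angpt1, Angpt2 and Fgf2 overlapped between the groups. Groups that did not overlap with TFEB KO lower were thus 5 of 10 members, beside 12.9% of all genes. An unadjusted p under 0.05 with a lower value was also reached by 5 of 10, beside 8.66% of all genes. A difference below 0 was seen in 8 of 10, beside 53.4% of all genes, and the median difference was -0.28 on the log2 scale, beside -0.01 over all genes. The members were chosen with earlier results of these data known, so these counts are not independent support.

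**Figure D1:**
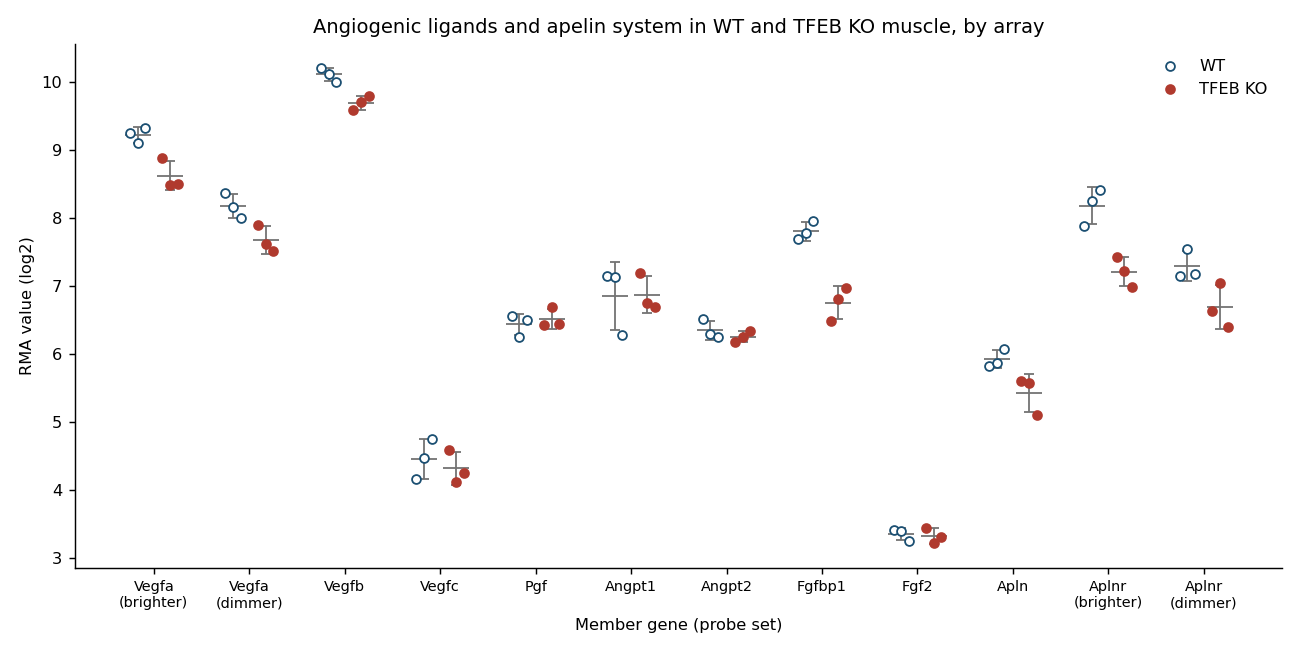
RMA value (log2, vertical axis) of each probe set of the 10 members (horizontal axis), where a point is an array of a WT (open) or a TFEB KO (filled) mouse, with the mean and SD of each group in gray. The TFEB KO arrays of Fgfbp1, both Aplnr probe sets, both Vegfa probe sets, Vegfb and Apln all lie below the WT arrays, while the groups overlap for Vegfc, Pgf, Angpt1, Angpt2 and Fgf2.

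Fgfbp1, the carrier that frees FGFs from the matrix, had the largest difference among the members. Its probe set, 1419086_at, was 7.69, 7.78 and 7.96 in WT 1, WT 2 and WT 3, against 6.49, 6.80 and 6.98 in KO 1, KO 2 and KO 3. Every TFEB KO array was below every WT array. The means were 7.81 ± 0.14 and 6.76 ± 0.25 (SD, n = 3 mice each). The difference was -1.05 on the log2 scale (SE 0.14, 95% interval -1.37 to -0.73), so 2.07-fold lower, at an adjusted p of 0.019 by limma. The call was lost without WT 1, WT 2, WT 3 or KO 2 (adjusted p = 0.062 to 0.071), while the difference stayed between -0.92 and -1.16 with any array left out. An exact permutation test (two-sided) gave p = 0.10 for this gene, the smallest p that 3 arrays against 3 allow, and the same holds for every member whose groups do not overlap.

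Fgf2, the ligand that Fgfbp1 carries, was dim, at the 4.65th percentile of probe set brightness. It read 3.25 to 3.41 in the WT arrays and 3.22 to 3.45 in the TFEB KO arrays, and these ranges overlap. Its log2 fold change was -0.03 with a 95% interval of -0.26 to 0.20 (adjusted p = 0.92 from limma). The deposited table gives no detection calls, and for a probe set this dim a small difference says little about the transcript.

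Aplnr, the G protein-coupled receptor for apelin, also fell. Its brighter probe set, 1438651_a_at, was 7.88, 8.24 and 8.41 in the WT mice, against 7.42, 7.23 and 6.99 in the TFEB KO mice. The groups did not overlap, and WT 1 was the lowest WT array. The means were 8.18 ± 0.27 and 7.21 ± 0.22 (SD, n = 3 mice each). The difference was -0.97 on the log2 scale (SE 0.16, 95% interval -1.33 to -0.60), so 1.95-fold lower, at an adjusted p of 0.034 by limma. The dimmer probe set, 1423037_at, read 7.15, 7.55 and 7.17 against 6.63, 7.04 and 6.40, and it too was lower in every TFEB KO array. Its log2 fold change of -0.60 (95% interval -1.005 to -0.20) did not pass the test (adjusted p = 0.13 from limma). The call of the brighter probe set was lost without any single array but KO 1 (adjusted p = 0.061 to 0.12), while the difference ran from -0.85 without WT 3 to -1.115 without WT 1.

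Apln, the gene for the apelin peptide, was 5.83, 5.87 and 6.08 in the WT mice, against 5.60, 5.58 and 5.11 in the TFEB KO mice. The groups did not overlap, and KO 3 stood lowest. The difference of -0.49 on the log2 scale (SE 0.15, 95% interval -0.83 to -0.16), 1.41-fold lower, did not pass the test (adjusted p = 0.14 from limma). Apelin and its receptor were thus lower in the same arrays, with Aplnr alone past the threshold.

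Vegfa, the gene for VEGF-A, was lower on both of its probe sets and missed the threshold on both. The brighter, 1420909_at, was 9.25, 9.10 and 9.32 in the WT mice, against 8.87, 8.49 and 8.504 in the TFEB KO mice, with KO 1 nearest to WT. The means were 9.22 ± 0.11 and 8.62 ± 0.22 (SD, n = 3 mice each). The difference was -0.60 on the log2 scale (SE 0.13, 95% interval -0.89 to -0.31), so 1.51-fold lower, at an adjusted p of 0.062 by limma. The dimmer, 1451959_a_at, was 8.36, 8.16 and 8.003 against 7.90, 7.62 and 7.51, again without overlap, a difference of -0.50 (95% interval -0.81 to -0.19, adjusted p = 0.11). Vegfa passed the test without KO 1 (-0.72, adjusted p = 0.028), with array weights (adjusted p = 0.042), with trended and robust moderation (0.044) and with dim probe sets left out (0.0496).

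Vegfb, the VEGF family member abundant in heart and muscle, was 10.20, 10.12 and 10.01 in the WT mice, against 9.59, 9.70 and 9.79 in the TFEB KO mice. The groups did not overlap, and the SD was 0.10 in each. The difference was -0.42 on the log2 scale (SE 0.10, 95% interval -0.64 to -0.19), so 1.34-fold lower, and missed the threshold (adjusted p = 0.083 by limma).

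Vegfc, Pgf and the angiopoietins showed no difference that stood out from the spread between mice. Vegfc, the lymphatic ligand, was dim and was 4.16, 4.47 and 4.75 in WT and 4.60, 4.12 and 4.24 in TFEB KO mice, a difference of -0.14 (95% interval -0.53 to 0.26, adjusted p = 0.74 from limma). Pgf, the placental growth factor, read 6.55, 6.25 and 6.50 against 6.43, 6.69 and 6.44, a difference of 0.08 (95% interval -0.19 to 0.36, adjusted p = 0.78). In both genes the arrays of the groups were interleaved. Angpt1 read 7.15, 7.14 and 6.28 against 7.19, 6.74 and 6.69, so that WT 3 was the lowest of the 6 arrays (log2 fold change 0.02, 95% interval -0.53 to 0.57, adjusted p = 0.98). Angpt2 read 6.51, 6.29 and 6.25 against 6.17, 6.25 and 6.33 (log2 fold change -0.10, 95% interval -0.33 to 0.14, adjusted p = 0.70). These intervals bound the size of a change and do not show that the levels were equal.

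**Figure D2:**
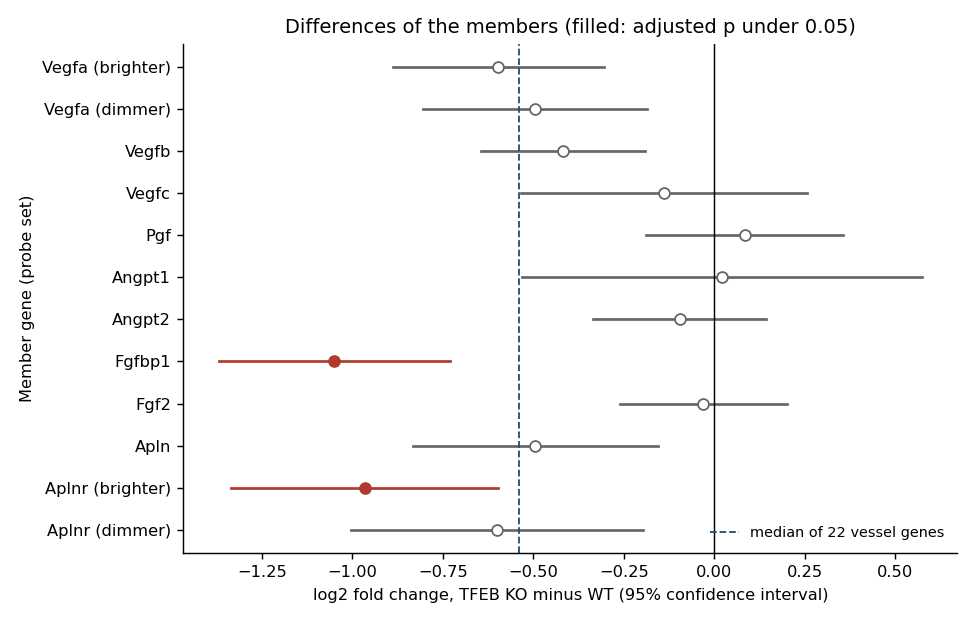
log2 fold change (TFEB KO minus WT, horizontal axis) of each member probe set (vertical axis) with its 95% confidence interval from limma, filled where the adjusted p is under 0.05, and the median of 22 vessel genes as a dashed line at -0.54. Fgfbp1 (-1.05) and the brighter Aplnr probe set (-0.97) are the filled points, and the line is a mark of level with no error of its own.

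Whether the members fell together with the genes of the vessels was asked with a list of 23 endothelial genes, of which 22 were measured. The list was drawn up with earlier results of these data known, so its counts describe these arrays and are not independent support. Of the 22, 9 fell and 0 rose, where 0.702% of all genes fell. All 22 lay below 0, beside 53.4% of all genes, with a median log2 fold change of -0.54. Rasip1, which shapes the vessel lumen, fell by 0.96 on the log2 scale, the clotting factor carrier Vwf by 0.86, the VEGF receptor Kdr by 0.89, the secreted vessel factor Egfl7 by 0.74, the transcription factor Sox18 by 0.75 and the VEGF receptor Flt1 by 0.57 (adjusted p = 0.011 to 0.042 from limma). Measured from the WT mean, the median of the list was 0.00 in each WT array and -0.70, -0.45 and -0.49 in KO 1, KO 2 and KO 3. In bulk muscle, fewer cells of a type and less RNA per cell cannot be told apart. The count fell with any array left out. Leaving out WT 1, WT 2 or WT 3 gave 0, 1 and 4 calls in that order, and leaving out KO 1, KO 2 or KO 3 gave 5, 2 and 4, with medians of -0.49 to -0.61. Of the 6 named, Rasip1 lost its call for want of WT 1 only, Egfl7 of WT 1 or WT 2, Vwf of those or KO 2, and Sox18 of any array.

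Set beside that median, the 95% intervals of Vegfa, Vegfb and Apln held -0.54. Those of Fgfbp1 and the brighter Aplnr probe set lay below it, while the interval of the dimmer Aplnr probe set (-1.005 to -0.20) held it. Those of the other 5 members lay above it, for Vegfc and Angpt1 only narrowly. The vessel genes themselves also lay on both sides, with 3 intervals below, 16 holding it and 3 above. Whether the members differ from the vessel genes was not tested, and the error of the list median is not in these intervals. Against the WT mean, Fgfbp1 was -1.32, -1.003 and -0.83 in KO 1, KO 2 and KO 3, and so lower than the vessel median in each. The brighter Aplnr probe set was -0.76, -0.95 and -1.19, close to the vessel median in KO 1 and below it in KO 2 and KO 3. Vegfa was -0.34, -0.73 and -0.72, so that KO 1, with the lowest vessel median, had the Vegfa value nearest to WT. Vegfb was -0.52, -0.41 and -0.32 in KO 1, KO 2 and KO 3, above the vessel median in each. Apln was -0.32, -0.34 and -0.81, above the vessel median in KO 1 and KO 2 and below it in KO 3.

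**Figure D3:**
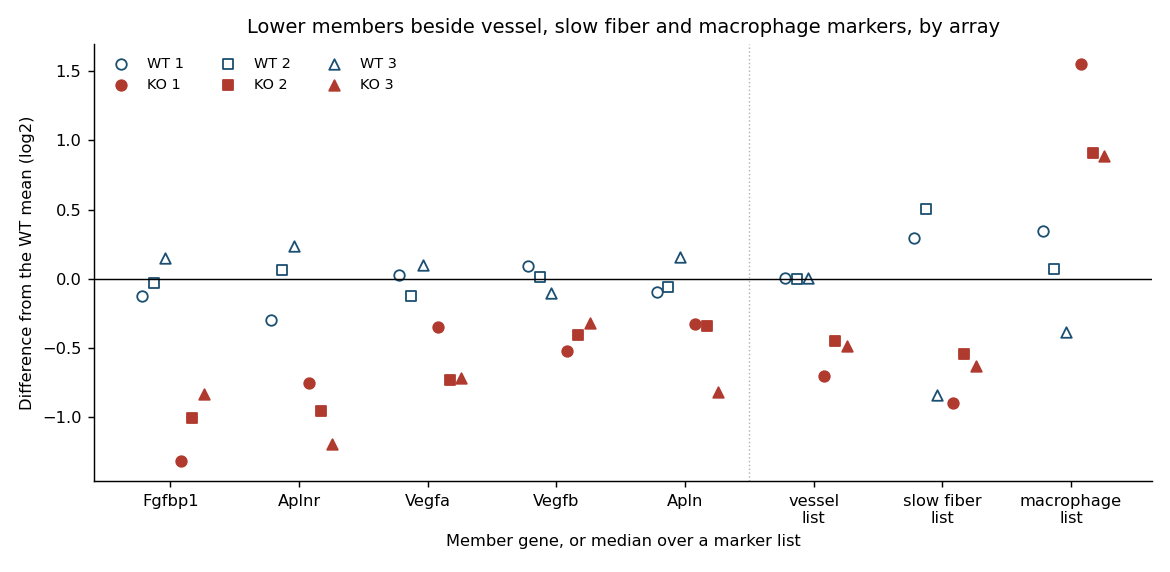
Difference from the WT mean (log2, vertical axis) in each WT (open) and each TFEB KO (filled) array, for 5 members and for the median over the vessel, slow fiber and macrophage lists (horizontal axis), with 1 symbol shape per replicate number, which does not pair the mice. The vessel median is 0.00 in the WT arrays and -0.70 to -0.45 in the TFEB KO arrays, while the slow fiber median of WT 3 (-0.84) lies among the TFEB KO arrays.

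Other tissue components moved in the same arrays. All 17 macrophage markers lay above 0 and 9 rose, among them Lgals3, Ctss and Mpeg1 (adjusted p = 0.011 to 0.017), with list medians of 0.34, 0.07 and -0.38 in the WT and 1.55, 0.91 and 0.89 in the TFEB KO arrays. Of 11 pericyte and smooth muscle markers, Acta2 fell (-0.70, adjusted p = 0.033) and 10 lay below 0, with list medians of -0.13 to 0.12 in WT and -0.42 to -0.30 in TFEB KO arrays. Of 10 fibroblast and tendon markers Fmod, Comp and Tnmd fell and 0 rose, and the list lay on both sides of 0 (6 below, 4 above, median -0.01), with medians of -0.14 to 0.07 in WT and -0.17 to 0.15 in TFEB KO arrays. Of 5 Schwann cell markers Mbp fell, with list medians of -0.03 to 0.11 in WT and -0.46 to -0.18 in TFEB KO arrays. Of 5 lymphatic markers Lyve1, which macrophages carry too, rose by 1.03, while at an unadjusted p under 0.05 the list had 2 genes lower and 2 higher, Lyve1 included. Its median was 0.19, and Prox1, the defining factor, was near the floor of the array at 3.12 in WT and 3.31 in TFEB KO. With single arrays left out, Lgals3, Ctss and Comp kept their calls in each case, while Fmod, Mpeg1, Mbp, Acta2, Lyve1 and Tnmd lost theirs in 2 to 6 of the 6 cases. The part of these shifts in the members' differences was not tested. In WT 3, the WT array with the lowest slow fiber genes, Fgfbp1, Apln and the brighter Aplnr and Vegfa probe sets had their highest WT values, and Vegfb and the dimmer Vegfa probe set their lowest. Without WT 3 the differences of Fgfbp1, Aplnr, Vegfa, Vegfb and Apln were -0.97, -0.85, -0.55, -0.47 and -0.42.

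Of 11 receptors for these ligands, Kdr and Flt1 fell and 0 rose on the brightest probe sets, with a median of -0.21. Kdr was 8.15, 8.31 and 7.82 in the WT mice, against 7.28, 7.25 and 7.08 in the TFEB KO mice, and Flt1 was 8.62 to 8.77 in WT and at most 8.26 in TFEB KO mice. Both were lower in every TFEB KO array, and both are also on the vessel list. The dimmer Flt1 probe sets, at -0.35 and -0.69, did not pass (adjusted p = 0.31 and 0.082 from limma), the call of Flt1 was lost without any array (0.058 to 0.16), and that of Kdr without WT 1, WT 2, KO 2 or KO 3 (0.074 to 0.12). Nrp1, a co-receptor for VEGF-A, was at 0.0052 on its brightest probe set (adjusted p = 0.99) but passed on a dimmer one (-0.50, adjusted p = 0.043), and was named after its values were seen. Tek, the angiopoietin receptor, named after its values were seen, was at -0.03 (95% interval -0.23 to 0.17, adjusted p = 0.91), beside its ligands Angpt1 at 0.02 and Angpt2 at -0.10. Tie1, on the same list and also named after its values were seen, was at -0.72 (95% interval -1.05 to -0.39). It was lower in every TFEB KO array but missed the threshold (adjusted p = 0.053 from limma).

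The wider set of angiogenic genes had few calls. Of 12 other ligands, 0 passed the test on the brightest probe set (2 lower and 1 higher at an unadjusted p under 0.05 from limma, 0 by the methods' t-test after adjustment). The chemokine Cxcl12 was at -0.24 on its brightest probe set (adjusted p = 0.34) but passed on a dimmer one (-0.89, adjusted p = 0.015). The smallest p-values on the brightest probe sets were those of the Notch ligands Dll4 (-0.63, adjusted p = 0.060) and Jag1 (-0.38, adjusted p = 0.17). The largest difference went the other way, in Angptl4 (0.90, adjusted p = 0.22), where the groups overlapped. Its dimmer probe set, near the floor of the array, was at -0.22, and Angptl4 was named after its values were seen. Of 10 genes listed as inhibitors of angiogenesis 0 passed (1 lower at an unadjusted p under 0.05 from limma). Sema3a, a guidance cue that repels endothelial cells, was at -0.41 (adjusted p = 0.084). The protease inhibitor Timp3 was at -0.24 (adjusted p = 0.31) on its brightest and -0.29 to -1.11 on its other probe sets. The list holds Vash2 (0.12), whose place among inhibitors is not settled, while Vash1 was not measured. Of 11 heparan sulfate proteins and enzymes, the store from which Fgfbp1 frees FGF2, 0 passed (4 lower at an unadjusted p under 0.05), with the glypicans Gpc4 at -0.45 (adjusted p = 0.067) and Gpc3 at -0.47 (adjusted p = 0.13). The medians of these 3 lists were 0.04, -0.09 and -0.11.

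The hypoxia list holds the hypoxia factors, their regulators and their targets, and the PGC-1 list the coactivators and related signaling genes. Of 22 hypoxia genes, Arnt, the partner subunit of the hypoxia factors, fell from 6.52 ± 0.03 to 5.97 ± 0.17 (SD, n = 3 mice each; -0.56, adjusted p = 0.049 from limma), while its dimmer probe set was at -0.12 (adjusted p = 0.59). Ndrg1, which hypoxia induces, was at -0.47 on its brightest probe set (adjusted p = 0.053), and 2 of its dimmer probe sets passed (-0.81 and -0.55, adjusted p = 0.042 and 0.043). The list had a median of 0.01, with 10 genes below 0 and 12 above, and 4 lower and 4 higher at an unadjusted p under 0.05. Hif1a, the oxygen-regulated subunit, was at 0.39 (adjusted p = 0.12) and the hydroxylase Egln3, which hypoxia induces, at 0.78 (adjusted p = 0.087), and these 2, like Ndrg1 and Cxcl12, were named after their values were seen. In the PGC-1 branch Nos1, the neuronal nitric oxide synthase of muscle fibers, fell by 0.74 (adjusted p = 0.038), its dimmer probe set was at -0.29 (adjusted p = 0.28), and Ppargc1a, the gene for PGC-1alpha and named after its values were seen, was at -0.49 (adjusted p = 0.24). All 4 measured genes of the PGC-1 list lay below 0, with a median of -0.47. At an unadjusted p under 0.05 from limma 3 were lower. Ppargc1b (PGC-1beta), also named after its values were seen, was at -0.46 without overlap (adjusted p = 0.11). Dimmer Ppargc1a probe sets were at -0.26 to -0.42 (adjusted p = 0.067 to 0.36). By real-time PCR, the paper reports no effect of TFEB deletion on expression of either coactivator. For nNOS, the product of Nos1, it reports a decrease in TFEB KO muscle by real-time PCR and by immunoblot. The calls of Arnt and Nos1 were each lost without any single array (adjusted p = 0.055 to 0.16).

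**Figure D4:**
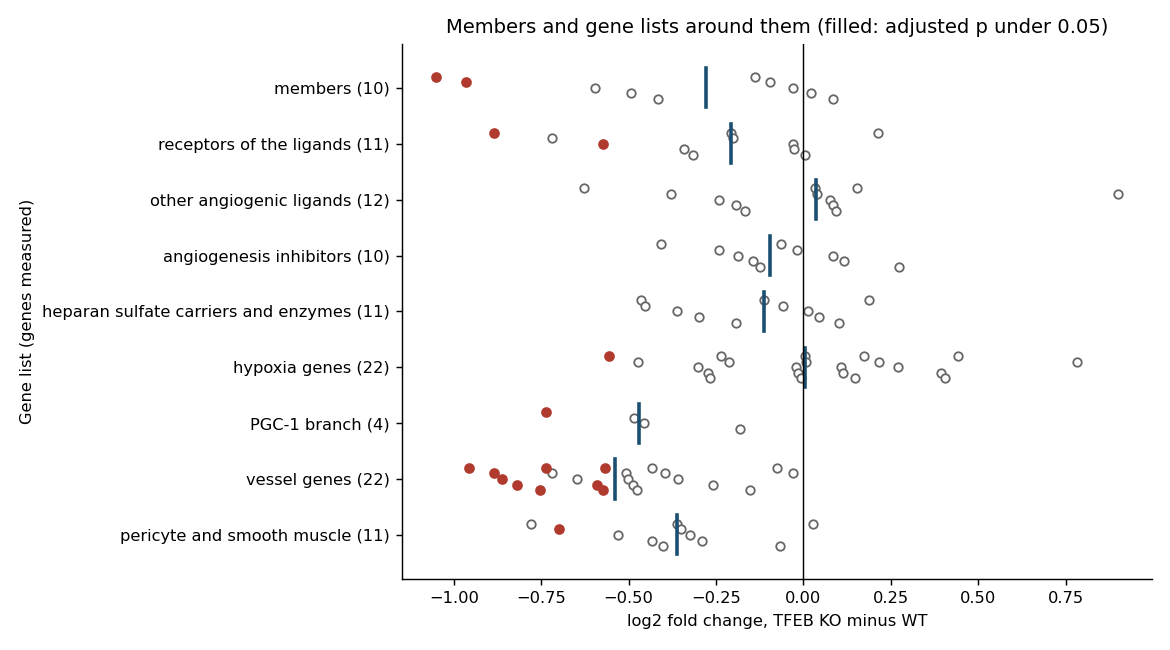
log2 fold change (TFEB KO minus WT, horizontal axis) of each gene on its brightest probe set, by list (vertical axis, with the number of genes measured), filled where the adjusted p is under 0.05, with the median of each list as a bar. The vessel genes all lie below 0 (median -0.54), and the hypoxia genes lie on both sides of 0 (median 0.01).

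The genes most like the called members across the arrays were found by correlation over the 6 arrays, which here mostly follows the difference between the groups. Those most like Fgfbp1 were Nudt19 (Pearson r 0.991), the complex I subunit Ndufs3 (0.991) and the synaptic vesicle protein Syngr1 (0.990). Those most like Aplnr were Emid1 (0.991), Gstt2 (0.990) and Fkbp1a (0.988). Of these 6, Nudt19 alone passed the test between the groups (-0.47, adjusted p = 0.045 from limma).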

How the data were processed

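Muscle RNA of 3 WT and 3 TFEB KO mice was read on 6 Affymetrix arrays, called biological replicates in the labels. The deposited values are log2 expression per probe set, which the authors obtained by RMA in affy, with no version stated in the sources used here. RMA equalizes the arrays, which would hide a shift common to most genes.

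The 64 Affymetrix controls among 22690 probe sets were dropped. Names came from the platform annotation (20380 with 1 gene symbol, 691 with several, 1555 with none). A two-sided moderated test in limma 3.58.1 (R 4.3.3) was run over 22626 probe sets, with Benjamini-Hochberg adjustment and a threshold of 0.05. The test was also tried on simulated data. Changes of size 0.5, 1 and 2 were found there in 18.2%, 85.7% and 99.4% of cases, with 5.32% false calls. A change near 0.5 was thus mostly missed in that setting, where each of 5 runs changed 200 probe sets. A gene with several probe sets was judged on the brightest. Figures and tables used matplotlib 3.10.9 and pandas 2.3.3 with NumPy 2.4.6 in Python 3.11.15. Precision is set by the number of arrays.

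The members and lists were chosen with earlier results of these data known. Named genes are all members, Tfeb, up to 6 genes past the test of the vessel list and each pathway list (the 2 with the smallest p where 0 passed), up to 3 of each cell type list (1 where 0 passed) and the 3 most correlated with each called member. Fast fiber, slow fiber and sex lists called 0 genes, with Actn3 (-0.10), Myh7 (-1.40) and Eif2s3y (0.43) at the smallest p. Promoter searches for the hypoxia core and the TATA box were added after the values were seen. The other settings tried are given in the closing section.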

Additional observations from a re-analysis of the deposited data

How the results depend on the processing

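The members called numbered 2, of the vessel list 9, of the 6 pathway lists 4 and of all probe sets 361. A Student's t-test was tried as well, which the study names among its general statistics and, in the sources used here, not for the arrays. With it these were 0, 0, 0 and 1 after Benjamini-Hochberg adjustment, and 4, 16, 19 and 3282 without that adjustment. With the replicate number as a block (replicate block), 1 member (Fgfbp1, adjusted p = 0.015, with Aplnr at 0.063) and 2 pathway genes were called. The numbers are not known to pair mice: same-numbered arrays deviated from their group means with correlations of 0.0876, 0.0477 and 0.265, and WT 1 correlated best with KO 2 (0.172). A minimum of 1.5-fold left 2 pathway genes. With each array left out in turn the counts ran from 0 to 3, 0 to 5, 0 to 3 and 21 to 438, the last from 21 without WT 1, 44 without KO 2, 60 without WT 2, 80 without WT 3 and 93 without KO 3 to 438 without KO 1. The pathway calls, 4 lower and 0 higher, became 1 lower and 2 higher without KO 1 and 5 lower and 1 higher with array weights. The pathway lists held 0 calls without WT 1, WT 2 or KO 2, and 1 without WT 3 or without KO 3. The members held 0 without WT 1, WT 2, WT 3 or KO 2, and 1 without KO 3. Fgfbp1, Aplnr, Vegfa, Vegfb, Apln and Angpt2 were lower in every setting that gave a value. Differences near 0 changed sign: Angpt1 to -0.13 with array weights and over -0.27 to 0.17 with arrays left out, Vegfc over -0.29 to 0.0061, Pgf over -0.0061 to 0.14 (and -4.676e-05 without KO 2) and Fgf2 over -0.091 to 0.024. Vegfc, Pgf, Angpt2, Fgf2 and Apln gave no value with dim probe sets left out. The causes were not tested.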
